A study of Caenorhabditis elegans with 6 samples.

Results

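The genes sqt-1, sqt-2, sqt-3, rol-6, bli-1, bli-2, dpy-5, dpy-13 and dpy-17 encode collagens of the worm cuticle that were found through mutants with an altered body shape. These 9 genes were selected by gene name among the 16391 rows of the expression table, and each matched 1 row. RNA was sequenced from whole L4 larvae of N2, the standard wild-type strain of C. elegans, fed on E. coli OP50, and each growth temperature, 15°C and 25°C, was represented by 3 libraries. Neither group carried a transgene or mutation. The methods of the study state that egg laying at the cooler temperature was started earlier so that the stages matched, while the labels describe culture from synchronized L1 larvae. Nothing in the labels says that the 3 libraries of a temperature came from separate cultures, so p-values measure the spread between these libraries, which may be technical. Expression is given as FPKM, the fragments of a gene relative to its transcript length and to all mapped fragments, so that levels can be compared between genes.

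The cuticle is an extracellular coat that the epidermis builds anew before each molt, mostly from small collagens with Gly-X-Y repeats. Their precursors are hydroxylated on prolines in the endoplasmic reticulum, trimmed by proteases after secretion and crosslinked through tyrosines. L4 larvae make the adult cuticle, in which struts join the outer and inner layers. Expression of cuticle collagens rises and falls within each molting cycle, and transcripts of dpy-5 and dpy-13 are known to peak later in it than those of the furrow collagens. Loss of a body-shape collagen or a change in it can make worms short and fat (dumpy, dpy, and squat, sqt), helically twisted (roller, rol) or blistered (bli), which is how the genes were named.

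By annotation, 5 of the 9 genes lie on chromosome II and 1 each on chromosomes I, III, IV and V of WBcel235. On chromosome II, sqt-2 extends from 23325 to 24458, bli-2 from 5651394 to 5652434, rol-6 from 8733050 to 8734239, bli-1 from 10708960 to 10712156 and sqt-1 from 11336693 to 11337837. The other genes lie apart, with dpy-5 on chromosome I from 5432197 to 5433051, dpy-17 on chromosome III from 5107330 to 5108492, dpy-13 on chromosome IV from 4235614 to 4236710 and sqt-3 on chromosome V from 12352745 to 12354320. They are small genes, with 855 exonic bases in dpy-5 and 3010 in bli-1 as the extremes. None shares exonic bases with another protein-coding gene except bli-1, which shares 7 bases with dph-2 on the opposite strand. sqt-3 shares 144 of its 1422 exonic bases with F23H12.13, a noncoding RNA on the opposite strand, and whether the counting used strand is not given in the sources used here, so reads from these stretches cannot be told apart. The cuticle collagens are a large family with repetitive sequences, and how reads were split between similar members was not tested.

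The body-shape collagens covered a wide range of levels. dpy-5 and dpy-13 were the most abundant at both temperatures, and sqt-3, sqt-2, sqt-1, bli-2 and rol-6 were intermediate. dpy-17 was near the lower limit of what was tested, and bli-1 was below it. All 9 were above 0 in each of the 6 libraries. At 15°C the mean of dpy-5, 61.2 ± 7.54 FPKM (SD, n = 3), exceeded the means of 72.3% of the 12996 tested genes, which are those whose mean reached 1 FPKM, and at 25°C its mean of 269 ± 24.7 FPKM exceeded those of 91.8%. The mean of rol-6 exceeded those of 22.6% at 15°C and 37.6% at 25°C. Compared with the 141 genes with a col- symbol, the body-shape collagens were a small part of the cuticle collagen message. Their summed FPKM was 0.359% ± 0.0513 of the sum of both groups of genes at 15°C and 1.46% ± 0.209 at 25°C (SD, n = 3 for each), a share that lay between 0.304% and 0.406% in the 15°C libraries and between 1.34% and 1.70% in the 25°C libraries. That share depends on the col- genes as well, with sums of 49857 ± 4763 FPKM in the 15°C libraries and 42334 ± 8240 FPKM in those at 25°C.

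**Figure D1:**
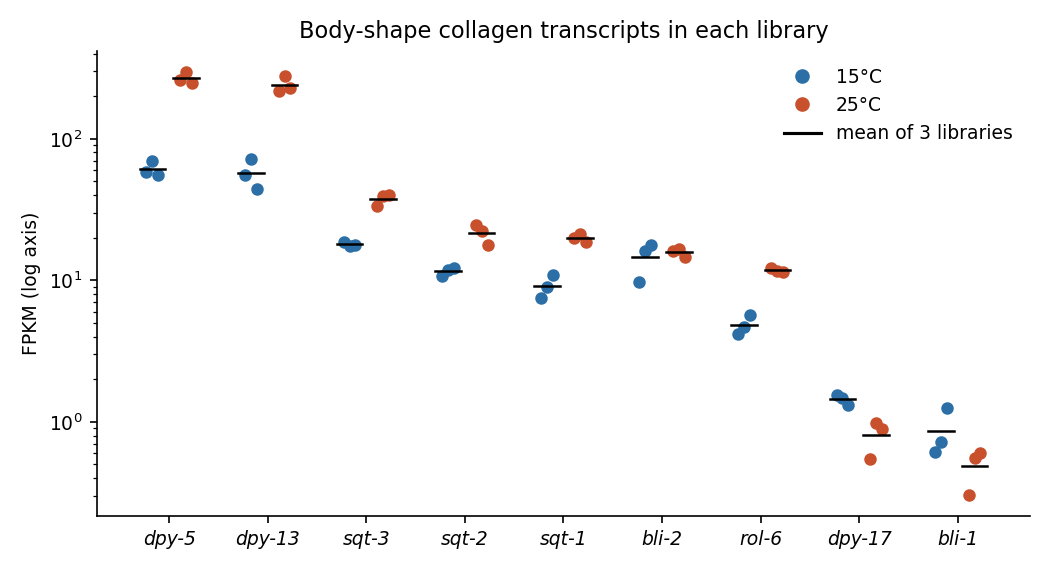
FPKM (log axis) of the 9 body-shape collagens in each library, with 3 points per temperature (15°C in blue, 25°C in red) and a black line at the mean. The points of dpy-5, dpy-13, sqt-3, sqt-2, sqt-1 and rol-6 at 25°C lie above all those at 15°C, those of bli-2 overlap, and those of dpy-17 and bli-1 at 25°C lie below.

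The comparison of 25°C with 15°C asked which of these genes were expressed differently in L4 worms grown at the warmer temperature. dpy-5, dpy-13, rol-6, sqt-1 and sqt-3 were higher at 25°C, dpy-5 and dpy-13 about 4.4-fold and 4.2-fold and the other 3 between 2.1-fold and 2.4-fold by their means. sqt-2 was 1.86-fold higher by its means, below the 2-fold threshold. bli-2, dpy-17 and bli-1 were not called in either direction. With limma on log2(FPKM + 0.5), 5 of the 8 tested members were called higher (log2 fold change beyond 1, adjusted p under 0.01) and 0 lower, where 6.96% of all tested genes were called higher and 5.59% were called lower. With an unadjusted p under 0.05, 6 members had a positive and 1, dpy-17, a negative log2 fold change, where 22.9% of all tested genes passed that cut with a positive and 26.9% with a negative value. bli-1 was not tested, because its mean of 0.675 FPKM was under that minimum. The median log2 fold change of the 8 tested members was 1.07, against -0.032 for all tested genes and 1.13 for the 107 tested col- genes. The log2 scale with 0.5 added understates the change of low genes such as dpy-17 and bli-1. The number called higher was 3 without 25°C replicate 3, where sqt-1 and rol-6 were no longer called, and 1, dpy-5, by treat, limma's test against a 2-fold change.

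Levels at 25°C lay above all levels at 15°C in 6 members, as in 25.9% of all tested genes, and below them in 2 members, dpy-17 and bli-1, against 28.7% of all tested genes. With 3 libraries against 3, an exact two-sided permutation test cannot go below 0.1, and it gave p = 0.1 for each of these 8 members and p = 0.8 for bli-2.

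dpy-5 and dpy-13, whose loss makes worms short and fat, showed the largest differences. dpy-5 measured 58.3, 69.7 and 55.5 FPKM in the 15°C libraries and 260, 297 and 250 FPKM in the 25°C libraries. Its lowest library at 25°C was far above its highest at 15°C, and replicate 2 was the highest library of each temperature. On the log2 scale the difference was 2.13 (standard error, SE, 0.13, adjusted p = 0.00012 from limma), larger than in 97.9% of tested genes. dpy-13 measured 55.5, 72.0 and 44.4 FPKM in the 15°C libraries and 218, 277 and 227 FPKM in the 25°C libraries. Here too the groups lay far apart and replicate 2 was the highest library of each temperature, although the 15°C libraries were more spread than those of dpy-5. This corresponded to a log2 fold change of 2.08 (SE 0.19, adjusted p = 0.00045 from limma), and its adjusted p against a 2-fold change by treat was 0.017 from limma. The levels of these genes overlapped between libraries at each temperature, although dpy-5 was the higher within every 25°C library. A difference between the genes was not tested. The ratio of dpy-5 to dpy-13 within a library was 1.05, 0.968 and 1.25 at 15°C and 1.19, 1.07 and 1.10 at 25°C, so that the values at 25°C fell inside the range of those at 15°C.

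sqt-1 and rol-6 encode collagens whose altered forms twist the body into a helix, and mutations in the pair are known to interact. sqt-1 measured 7.51, 9.04 and 10.9 FPKM in the 15°C libraries and 19.9, 21.1 and 18.6 FPKM in the 25°C libraries. Its groups did not overlap, and the 15°C libraries were the more spread. For sqt-1 the log2 fold change was 1.09 (SE 0.17, adjusted p = 0.0031 from limma), close to the threshold, and the call was lost without 15°C replicate 1 (0.96) and without 25°C replicate 1, 2 or 3 (1.09, 1.05 and 1.14). rol-6 measured 4.15, 4.66 and 5.64 FPKM in the 15°C libraries and 12.2, 11.6 and 11.5 FPKM in the 25°C libraries. The 25°C libraries of rol-6, with a mean of 11.8 ± 0.384 FPKM, were the tightest group of any member in proportion to their mean (coefficient of variation 3.26%), and lay well above all 15°C libraries. For rol-6 the log2 fold change was 1.21 (SE 0.16, adjusted p = 0.0018 from limma), and the call was lost without 25°C replicate 3 (1.23). The ratio of sqt-1 to rol-6 was 1.81, 1.94 and 1.94 at 15°C and 1.63, 1.83 and 1.62 at 25°C. Over the 6 libraries this was the pair of members with the most similar pattern, with a root mean square difference of 0.089 between their log2 values after each was centered on its own mean, followed by dpy-5 and dpy-13 with 0.12.

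sqt-2 and sqt-3 are further collagens of the squat class, and sqt-3 is the known substrate of the protease DPY-31. sqt-3 measured 18.7, 17.4 and 17.8 FPKM in the 15°C libraries and 33.6, 39.7 and 39.8 FPKM in the 25°C libraries. The 15°C libraries hardly differed from each other, and the groups lay well apart. For sqt-3 the log2 fold change was 1.05 (SE 0.12, adjusted p = 0.0012 from limma) and stayed past the threshold with any 1 library left out (1.01 to 1.12). sqt-2 measured 10.7, 11.8 and 12.3 FPKM in the 15°C libraries and 24.6, 22.2 and 17.8 FPKM in the 25°C libraries. Its groups did not overlap, with 25°C replicate 3 nearest to the 15°C libraries. On the log2 scale the fold change was 0.86 (95% interval 0.48 to 1.23, adjusted p = 0.0062 from limma), so that only the fold threshold was missed, and it was called when each library was brought to the same FPKM sum (1.04).

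dpy-17 encodes a collagen on which secretion of SQT-3 is known to depend. Its transcript measured 1.55, 1.46 and 1.31 FPKM in the 15°C libraries and 0.550, 0.975 and 0.888 FPKM in the 25°C libraries. The 25°C libraries were all below those at 15°C, in the direction opposite to sqt-3. The log2 fold change was -0.59 (95% interval -1.17 to -0.0027, adjusted p = 0.099 from limma), which is not a call. It was -0.80 with a pseudocount of 0.1, -0.46 with equal sums and -0.28 with rescaling to TPM, and was not called under any of these. The ratio of sqt-3 to dpy-17 within a library was 12.1, 11.8 and 13.6 at 15°C and 61.1, 40.7 and 44.8 at 25°C. At these levels of dpy-17 the precision rests on the 3 libraries alone, since the number of reads behind an FPKM value is unknown.

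bli-1 and bli-2 encode collagens of the struts of the adult cuticle. bli-2 measured 9.74, 16.0 and 17.8 FPKM in the 15°C libraries and 16.2, 16.7 and 14.6 FPKM in the 25°C libraries. The groups overlapped, with 15°C replicate 1 the lowest library of all. The log2 fold change was 0.16 (95% interval -0.38 to 0.70, adjusted p = 0.61 from limma), an interval that lies inside a 2-fold change in either direction and includes 0, and without 15°C replicate 1 the value was -0.097. The gene zyg-1, which overlaps the span of bli-2 on the opposite strand but shares 0 exonic bases with it, measured 26.0, 36.4 and 31.4 FPKM in the 15°C libraries and 12.5, 15.9 and 13.7 FPKM in the 25°C libraries. bli-1 measured 0.616, 0.719 and 1.24 FPKM in the 15°C libraries and 0.307, 0.560 and 0.603 FPKM in the 25°C libraries. All libraries at 25°C were below those at 15°C, but replicates 1 and 2 at 15°C were close to the highest 25°C library. With no filter on low values its log2 fold change was -0.44 (adjusted p = 0.20 from limma). bli-2 was therefore 14.3 to 22.3 times as high as bli-1 at 15°C and 24.1 to 52.8 times at 25°C.

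**Figure D2:**
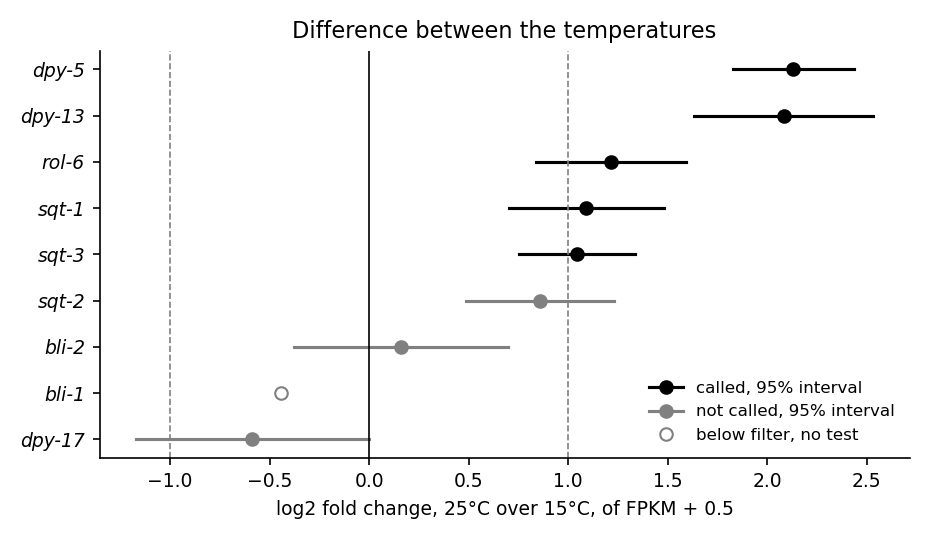
Log2 fold change at 25°C over 15°C of FPKM + 0.5 for each body-shape collagen, with the 95% interval from limma as a bar, black for called genes and grey for genes not called, and dashed lines at a 2-fold change. dpy-5 (2.13) and dpy-13 (2.08) stand beyond rol-6 (1.21), sqt-1 (1.09) and sqt-3 (1.05), and bli-1, an open circle, was not tested.

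The order of the levels changed little between the temperatures. At 15°C it was dpy-5, dpy-13, sqt-3, bli-2, sqt-2, sqt-1, rol-6, dpy-17 and bli-1, and the libraries overlapped between dpy-5 and dpy-13, between sqt-3 and bli-2, between bli-2 and sqt-2 and between sqt-2 and sqt-1. At 25°C bli-2 stood after sqt-1, and the libraries overlapped between dpy-5 and dpy-13, between sqt-2 and sqt-1 and between dpy-17 and bli-1. sqt-1 was thus below bli-2 in each 15°C library, with ratios of 0.771, 0.564 and 0.612, and above it in each 25°C library, with ratios of 1.23, 1.27 and 1.28.

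The share of each member in the summed FPKM of the 9 genes was examined because it does not depend on how libraries are scaled to each other. The sum was 167, 203 and 167 FPKM at 15°C and 586, 686 and 581 FPKM at 25°C. dpy-5 and dpy-13 together made up 66.0% ± 5.41 of it at 15°C and 82.5% ± 0.996 at 25°C (SD, n = 3 for each). The share of dpy-5 was 35.0%, 34.4% and 33.2% at 15°C and 44.4%, 43.2% and 43.0% at 25°C, and that of dpy-13 was 33.3%, 35.5% and 26.6% at 15°C and 37.3%, 40.3% and 39.1% at 25°C. The shares of these dumpy collagens were thus higher in every 25°C library than in any 15°C library. Those of the other 7 members were lower in every 25°C library than in any 15°C library. This direction depends on the denominator, since with the col- genes added to it the mean shares of sqt-1, sqt-2, sqt-3, rol-6 and bli-2 were higher at 25°C by 0.00905 to 0.0528 percentage points. The share of bli-2 moved from 8.14% ± 2.44 to 2.57% ± 0.175, that of sqt-3 from 10.1% ± 1.40 to 6.12% ± 0.629 and that of sqt-2 from 6.52% ± 0.787 to 3.50% ± 0.615. The share of sqt-1 moved from 5.17% ± 1.19 to 3.23% ± 0.162 and that of rol-6 from 2.72% ± 0.577 to 1.92% ± 0.206, although both genes were called higher. The shares of dpy-17 (0.811% ± 0.106 and 0.130% ± 0.0314) and bli-1 (0.490% ± 0.221 and 0.0793% ± 0.0259) were the smallest at each temperature. In each of the 9 shares an exact permutation test, two-sided, reached its limit of p = 0.1, and 0.1 after Benjamini-Hochberg adjustment over the 9. Shares add up to the whole, so they are not independent of each other, and a lower share is not a lower level. Leaving dpy-5 and dpy-13 aside, the summed FPKM of the other 7 members was 60.3 ± 7.10 at 15°C and 108 ± 4.50 at 25°C.

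**Figure D3:**
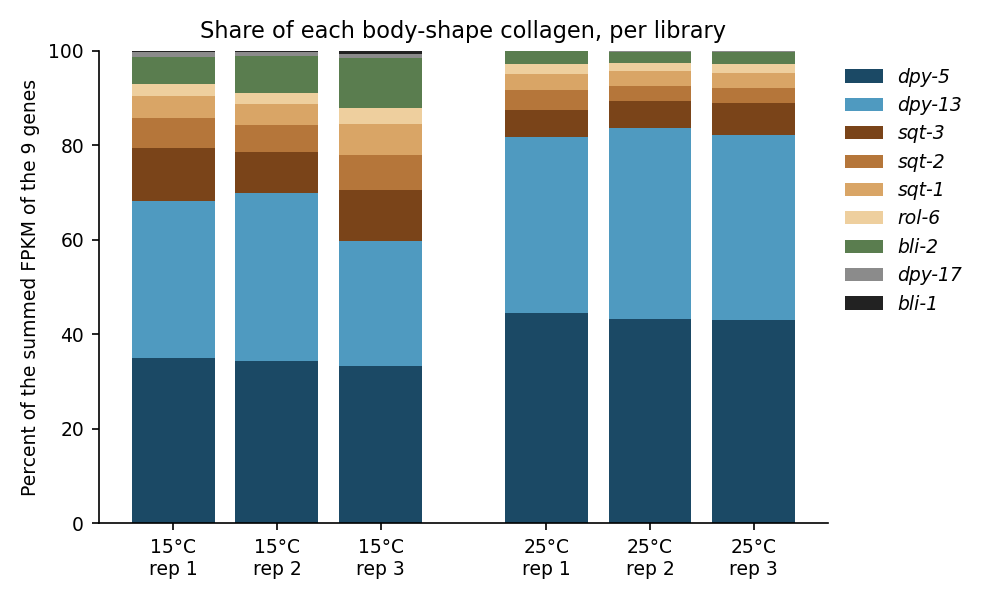
Percent of the summed FPKM of the 9 body-shape collagens taken by each gene, as stacked bars from 0 to 100 for each of the 3 libraries at 15°C and 3 at 25°C. The dark and light blue parts, dpy-5 and dpy-13, together fill between 59.8% and 69.9% of the bars at 15°C and between 81.7% and 83.6% at 25°C, and the green part, bli-2, is narrower at 25°C.

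**Figure D4:**
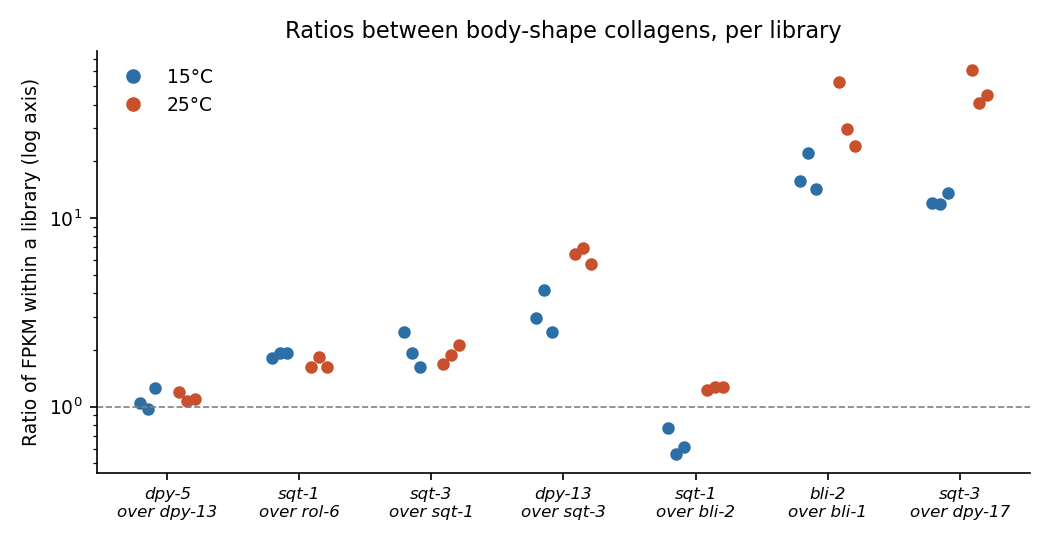
Ratio of the FPKM of pairs of body-shape collagens within each library (log axis, 15°C in blue, 25°C in red, dashed line at equal levels). The points of both temperatures overlap for dpy-5 over dpy-13, for sqt-1 over rol-6 and for sqt-3 over sqt-1. The points at 25°C lie higher for dpy-13 over sqt-3 (2.49 to 4.15 at 15°C, 5.71 to 6.98 at 25°C), for bli-2 over bli-1 and for sqt-3 over dpy-17. Those of sqt-1 over bli-2 cross the dashed line.

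The spread between libraries of the same temperature was ordinary for these genes. The median residual SD of all tested genes on the log2 scale was 0.22. Among the members it was lowest for sqt-3, at 0.10, and highest for bli-2, at 0.33, which was higher than in 76.0% of tested genes. That of dpy-13 was 0.28, and those of the other tested members lay between 0.15 and 0.20.

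Tested genes with the most similar pattern over the 6 libraries were found by the root mean square difference of centered log2(FPKM + 0.5) values, and the 3 nearest are given for the members with the largest differences. For dpy-5 these were the cuticle collagens col-38 (0.056), col-138 (0.083) and col-71 (0.096), which had means of 213, 188 and 157 FPKM. For dpy-13 they were math-37 (0.087), the cuticlin gene cut-2 (0.092) and the collagen gene dpy-4 (0.093). The nearest genes of rol-6 were C44B7.11 (0.040), the protein disulfide isomerase gene pdi-6 (0.065) and K01A2.5 (0.070), and none of the 3 nearest genes of sqt-1, sqt-2 or sqt-3 had a col- symbol. In these lists of neighbors a match says only that the values of 6 libraries moved alike.

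Other collagen genes named for body shape were examined beside the members. Among dpy-4, dpy-14, rol-1, rol-8, bli-6, lon-3 and ram-2, 6 genes were tested. Of these, 4 passed as higher (66.7%, against 6.96% of all tested genes) and 0 as lower in limma. The median log2 fold change of the 6 was 1.69, and all 6 were above 0. At an unadjusted p under 0.05, 5 of the 6 passed, all higher, against 22.9% of all tested genes. The largest rise was that of dpy-4, with 47.1 ± 11.1 FPKM at the cooler and 197 ± 25.7 FPKM at the warmer temperature (SD, n = 3 for each) and a log2 fold change of 2.07 (adjusted p = 0.00041 from limma), which resembles dpy-13 in level and change. The other 3 called, named after their values were seen, were rol-1 (1.99), bli-6 (1.70) and ram-2 (1.67). Of the collagens of the circumferential furrows, dpy-2, dpy-3, dpy-7, dpy-8, dpy-9 and dpy-10, 5 were tested. Of these, 0 were called higher and 1 lower (20%, against 5.59% of all tested genes). The 5 log2 fold changes were below 0, with a median of -0.93. An unadjusted p under 0.05 was passed by 3 of the 5, against 26.9% of all tested genes with a lower value. The libraries of dpy-2 and dpy-8 overlapped between the temperatures. The gene called was dpy-9, with 6.29 ± 0.902 FPKM at 15°C, 2.07 ± 0.636 FPKM at 25°C and a log2 fold change of -1.42 (adjusted p = 0.0040 from limma). The summed FPKM of the 6 furrow genes was 14.2 to 17.9 in the 15°C libraries and 4.46 to 9.66 in the 25°C libraries. Of the 107 tested col- genes, 53 were called higher (49.5%) and 13 lower (12.1%), against 6.96% and 5.59% of all tested genes. The median log2 fold change of the col- genes was 1.13, and that of the 8 tested members was 1.07. dpy-5 had a larger log2 fold change than all but 24 of the tested col- genes, dpy-13 than all but 26 and rol-6 than all but 50.

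Genes that modify, trim and crosslink collagens were examined next. Of 16 tested processing genes, 3 passed as higher (18.75%, against 6.96% of all tested genes) and 0 as lower in limma, with a median log2 fold change of 0.23. An unadjusted p under 0.05 was passed by 7 with a higher value and 2 with a lower value at 25°C, against 22.9% and 26.9% of all tested genes. The largest rise was that of bli-5, which encodes a protein with a protease inhibitor domain, with 6.27 ± 1.36 FPKM at 15°C, 32.5 ± 10.7 FPKM at 25°C and a log2 fold change of 2.26 (adjusted p = 0.0011 from limma). The other genes called, named after their values were seen, were mlt-7 (1.96), which encodes a peroxidase of cuticle crosslinking, and dpy-18 (1.14), which encodes a prolyl 4-hydroxylase subunit. Chosen in the same way, the subtilisin-like protease gene bli-4 was at 78.7 ± 18.9 and 83.6 ± 8.05 FPKM, and dpy-31, the protease gene of SQT-3, at 11.4 ± 3.88 and 9.90 ± 1.19 FPKM (SD, n = 3 for each), both not called. Collagens of the basement membrane were not called, with log2 fold changes of -0.020 for emb-9, -0.32 for let-2 and -0.45 for cle-1, 1 of the 3 past an unadjusted p under 0.05. Of 9 tested regulators of epidermal gene expression 0 were called, with a median of 0.019 and 2 past an unadjusted p under 0.05, both with lower values. For these counts of basement membrane and regulator genes, 26.9% of all tested genes passed that cut with a lower value. Of 10 tested genes of the DBL-1 pathway, a TGF-beta pathway that sets body size, 0 were called by limma, with a median of 0.18. Among them sma-6 missed only the fold threshold, with a log2 fold change of 0.82 (adjusted p = 0.0070 from limma). An unadjusted p under 0.05 was passed by 4 with a higher value (sma-3, sma-6, sma-10 and lon-2) and 2 with a lower value (daf-4 and lon-1). All 6 were named after their values were seen. Of all tested genes, 22.9% passed that cut with a higher and 26.9% with a lower value.

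**Figure D5:**
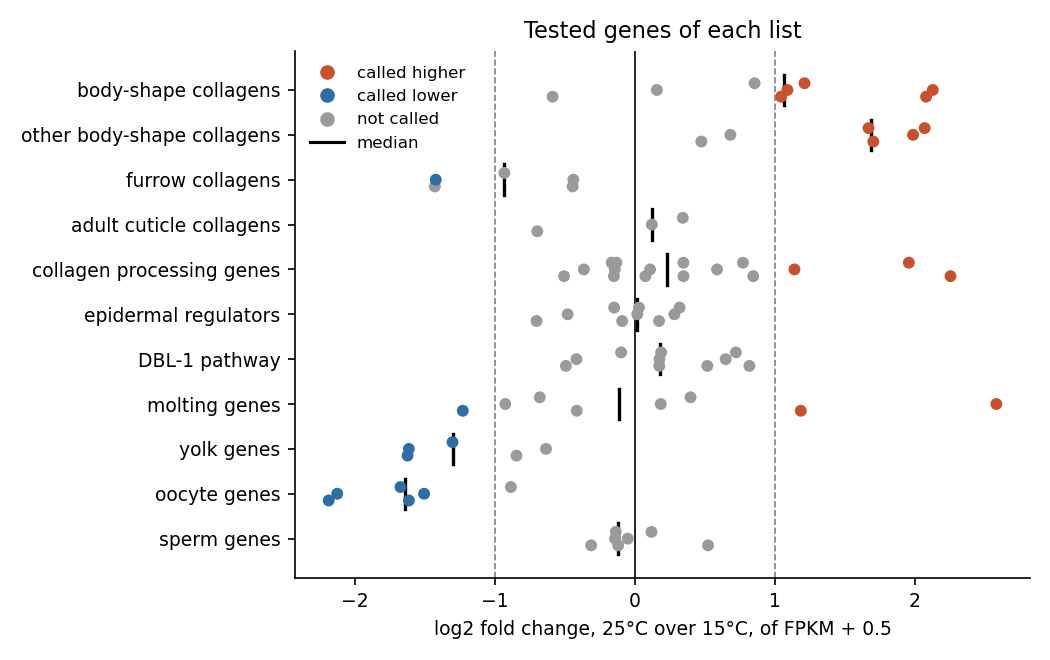
Log2 fold change at 25°C over 15°C of FPKM + 0.5 for each tested gene of 11 lists, as points (red for called higher, blue for called lower, grey for not called), with a black line at the median of the list and dashed lines at a 2-fold change. The medians of the body-shape collagens (1.07) and of the other collagens named for body shape (1.69) lie at higher values than that of the furrow collagens (-0.93), and the yolk and oocyte genes lie below 0.

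Marker genes of developmental progress, the germline and other tissues were examined in the same libraries. All 6 oocyte genes were lower at 25°C, 5 of them called (83.3%, against 5.59% of all tested genes called lower). Their summed FPKM was 631 to 871 at 15°C and 170 to 301 at 25°C. The largest fall was that of cbd-1, an eggshell gene, with a log2 fold change of -2.19. Of 5 tested yolk genes 3 were called lower (60%, with sums of 2760 to 4626 and 1568 to 1910 FPKM), most of all vit-5 (-1.62). Of 5 germline genes 2 were called lower (40%, with sums of 964 to 1318 and 466 to 705 FPKM), most of all gld-1 (-1.35). Of 8 tested molting genes 2 were called higher (25%) and 1 lower (12.5%), against 6.96% and 5.59% of all tested genes. The largest rise was that of nas-36 (2.58), and noah-2 (-1.23) was called lower. The sums over 10 molting genes, tested or not, were 34.7 to 41.7 and 74.4 to 91.2 FPKM. The median log2 fold change of the 8 tested was -0.11. An unadjusted p under 0.05 was passed by 2 with a higher and 3 with a lower value. Of all tested genes, 22.9% passed that cut with a higher and 26.9% with a lower value. These shares also stand beside the counts at that cut for the lists that follow. Sperm genes were not called, with 7 tested and sums of 595 to 679 and 604 to 645 FPKM. An unadjusted p under 0.05 was passed by 2 of them, 1 with a higher and 1 with a lower value. Adult cuticle collagens were at 502 ± 82.0 and 549 ± 104 FPKM for col-7, at 1589 ± 116 and 1008 ± 289 FPKM for col-19 and at 419 ± 79.8 and 531 ± 89.3 FPKM for col-62, and none was called, with 1, col-19, past an unadjusted p under 0.05. The part of these differences in the values of the body-shape collagens was not tested. In whole worms, more epidermal cells or tissue and more RNA per cell cannot be told apart. Of the epidermis genes 0 of 4 tested were called, nor were any of 4 tested muscle genes or 4 tested neuron genes. Sums over 5 epidermis genes, tested or not, were 23.4 to 40.1 and 26.6 to 31.01 FPKM. Those over the 4 muscle genes were 1592 to 1797 and 1178 to 1430 FPKM. Those over 5 neuron genes, tested or not, were 123 to 151 and 161 to 189 FPKM. In each of these 3 lists 1 gene passed an unadjusted p under 0.05, with a higher value for epidermis and neuron and a lower value for muscle. The neuron gene missed only the fold threshold, with a log2 fold change of 0.80 (adjusted p = 0.0025 from limma). Of 5 intestine genes 1 was called higher (20%, against 6.96% of all tested genes), elt-7 (1.11), with sums of 1604 to 2150 and 1738 to 1785 FPKM. No gene of these lists was at 0 in every library.

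The FPKM of all genes summed to between 2865856 and 3313082 in the 15°C libraries and to between 2663992 and 2776526 in the 25°C libraries, and each library had values above 0 for 15007 to 15255 genes. Scaling by these sums moved the median of all tested genes, in log2 fold change, from -0.032 to 0.13 with rescaling to TPM and to 0.15 with equal sums. The 8 tested members kept their direction under both, and their values moved by unequal amounts. dpy-5 moved from 2.13 to 2.30 and 2.32, rol-6 from 1.21 to 1.23 and 1.39 and dpy-17 from -0.59 to -0.28 and -0.46. TPM values add up to less than the FPKM values did, so the 0.5 added to each weighs more on low genes, and bli-1 was not computed under these scalings.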

How the data were processed

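The authors aligned paired-end reads from a stranded mRNA kit to WBcel235 with TopHat 2.0.6, processed them with Cufflinks and deposited 1 FPKM value per gene and library, and their filters are not stated in the sources read. The smallest value above 0 was 9.8e-258, which no whole number of reads gives, so depth is unknown, no counting interval can be given and precision rests on 3 libraries per temperature. Authors' fold changes were not used. The 12996 genes whose mean reached 1 FPKM were compared on log2(FPKM + 0.5), as deposited, with limma 3.58.1 in R 4.3.3 (intensity trend, no covariate, two-sided tests, Benjamini-Hochberg adjustment), and genes were called past 1 in log2 fold change and 0.01 in adjusted p. The steps were tested on simulated data. Exact permutation tests used Python 3.11.15. Coordinates are from Ensembl release 115. The members and gene lists were chosen with earlier results of these data known. Named genes were the 9 members, from each list the called genes that rose and fell most, all genes of lists of 3 and the nearest genes by pattern, and of the latter those of sqt-1, sqt-2, sqt-3, bli-1, bli-2 and dpy-17 are not named. Outside this rule, furrow and other body-shape genes are named as lists, genes that overlap members are named, and rol-1, bli-6, ram-2, mlt-7, dpy-18, bli-4, dpy-31 and 6 DBL-1 pathway genes were chosen after their values were seen. The lists were furrow, other body-shape, adult cuticle and basement membrane collagens, collagen processing genes, epidermal regulators, the DBL-1 pathway, and molting, yolk, oocyte, sperm, germline, epidermis, intestine, muscle and neuron genes. Results were recomputed with other pseudocounts (0.1 and 1), filters (none, or a mean of 5 FPKM), scalings (median ratio, TPM, equal sums) and tests (no trend, adjusted p under 0.05, treat, a replicate block), and without each library.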

Additional observations from a re-analysis of the deposited data

How the results depend on the processing

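No member was called lower under any alternative run, and dpy-5 was called higher under all of them. The number called higher was 1 by treat, where the fold changes of sqt-1 (1.09), sqt-3 (1.05), rol-6 (1.21) and dpy-13 (2.08) stayed as they were and only the test was stricter, and 6 with equal sums, where sqt-2 (1.04) was added. With 1 library left out the number was 3 to 5, and the log2 fold change was 0.96 to 1.22 for sqt-1, 1.12 to 1.32 for rol-6 and -0.097 to 0.32 for bli-2, which was below 0 without 15°C replicate 1 only. Whether the replicate numbers pair the libraries is not known. Over all tested genes, libraries with the same number had correlations of -0.035, -0.10 and -0.050 between their deviations from the group means. These values cannot exclude a pairing that acts on some genes only. With the replicate number as a block 3 members were called higher, without sqt-1 (1.09) and rol-6 (1.21), while over all tested genes 597 were called higher and 406 lower. Over all tested genes, treat called 137 higher and 26 lower, against 904 and 726.

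With the col- genes added to the denominator, the difference in share between 25°C and 15°C was 0.0292 percentage points for sqt-1, 0.0288 for sqt-2, 0.0528 for sqt-3, 0.0186 for rol-6 and 0.00905 for bli-2, all with the sign opposite to that within the 9 genes, 0.514 for dpy-5 and 0.451 for dpy-13, and -0.000563 for bli-1 and -0.00106 for dpy-17. With a mean of at least 5 FPKM, dpy-17 and bli-1 could not be fitted. Depth could not be used to set limits on low genes.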
